A study of Danio rerio with 8 samples.

Results

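The 10 genes described here mark radial glia, astrocytes and Müller glia, and were chosen by name from a list of such markers, drawn up with earlier results of these data known. They were *gfap*, *fabp7a*, *slc1a2b*, *slc1a3a*, *slc1a3b*, *glula*, *s100b*, *aqp1a.1*, *nfia* and *slc4a4a*, which are 10 of 32520 rows in the table of raw counts. All 10 were found under their own symbol, once each, and all 10 passed the filter on low counts (10 or more counts in 3 or more libraries) that left 19412 genes for testing. The RNA came from pooled heads of AB strain zebrafish larvae at 7 dpf, with 11 to 17 heads dissected for a genotype, and was sequenced as 4 libraries of *mtmr5*-KO larvae and 4 libraries of wild-type (WT) larvae. The *mtmr5*-KO larvae are homozygous for a CRISPR/Cas9 deletion of the whole *mtmr5* gene (*sbf1* in the files), and larvae were genotyped before the heads were taken. The replicates came from different breeding pairs, collected at different times. The paper calls the WT larvae siblings, and does not say whether same-numbered libraries share parents. Heads hold eyes, skin, muscle and cartilage as well as brain, so that none of these genes was measured in isolated glia.

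Radial glia are the long, ventricle-lining cells of the developing vertebrate brain that act as neural progenitors and as scaffolds for migrating neurons. In zebrafish they persist and also carry out much of what astrocytes do in mammals, and Müller glia are their counterpart in the retina. Glia of this kind take up synaptic glutamate with the transporters of the EAAT family, turn it into glutamine with glutamine synthetase, and buffer ions, acid and water around neurons. The genes are described below by these roles.

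Relative to the bulk of the genes, the glial markers that passed the test in *mtmr5*-KO heads moved in both directions. *nfia*, the transcription factor nuclear factor I A, which in mouse drives the switch of neural progenitors to making astrocytes, rose 3.08-fold. Which cells of the head this RNA came from was not tested. *slc4a4a*, a sodium bicarbonate cotransporter, rose 1.47-fold. *aqp1a.1*, a water channel, fell to 0.568 of its WT level. The other 7 genes did not pass the test, among them the glutamine synthetase *glula*, at a fold of 1.01. At an adjusted p under 0.05 (edgeR's quasi-likelihood test, two-sided, with Benjamini-Hochberg adjustment over all 19412 genes), 2 of the 10 genes were higher, against 13.5% of all tested genes, and 1 was lower, against 7.51%. With the stricter thresholds of the study's methods (adjusted p below 0.01, log2 fold change beyond 1 in size), only *nfia* was called, and 7.13% of all tested genes were called higher in this way. With 10 genes, these counts are close to what the shares of all tested genes give. The median log2 fold change was 0.12 over the 10 genes and -0.02 over all tested genes.

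The libraries of the 2 genotypes differed in more than these genes. The deleted gene *sbf1* had 26 to 63 raw counts in the libraries labelled as *mtmr5* knockout and 1894 to 2545 in those labelled as wild-type. Total counts were 16104181 to 19170140 in *mtmr5*-KO and 20514932 to 22761120 in WT libraries. The 13 mitochondrially encoded genes took 18.6% to 26.6% of the counts in *mtmr5*-KO and 6.43% to 8.82% in WT libraries (p = 0.0286, two-sided exact permutation test, which cannot go lower with 4 libraries per genotype). Outside the 20 most abundant rows, 6294627 to 8865749 counts remained in *mtmr5*-KO and 14892840 to 17800728 in WT libraries. Levels are therefore given as CPM, the counts scaled to the TMM-adjusted size of each library, a scaling which assumes that most genes do not change between libraries. The TMM factors were 0.559 to 0.881 in *mtmr5*-KO and 1.28 to 1.60 in WT libraries. With library totals in place of TMM, the median over all tested genes was -0.98 on the log2 scale, and that over the 10 genes -0.92. The part of the mitochondrial genes in this gap between scalings was not tested. Under that scaling 6 of the 10 genes were called lower, beside 55.7% of all tested genes, and 1 (*nfia*) was called higher. No value here can tell apart fewer glial cells in a head and less RNA of these genes in each glial cell. *mtmr5*-KO replicates 3 and 4 had the highest mitochondrial shares.

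**Figure D1:**
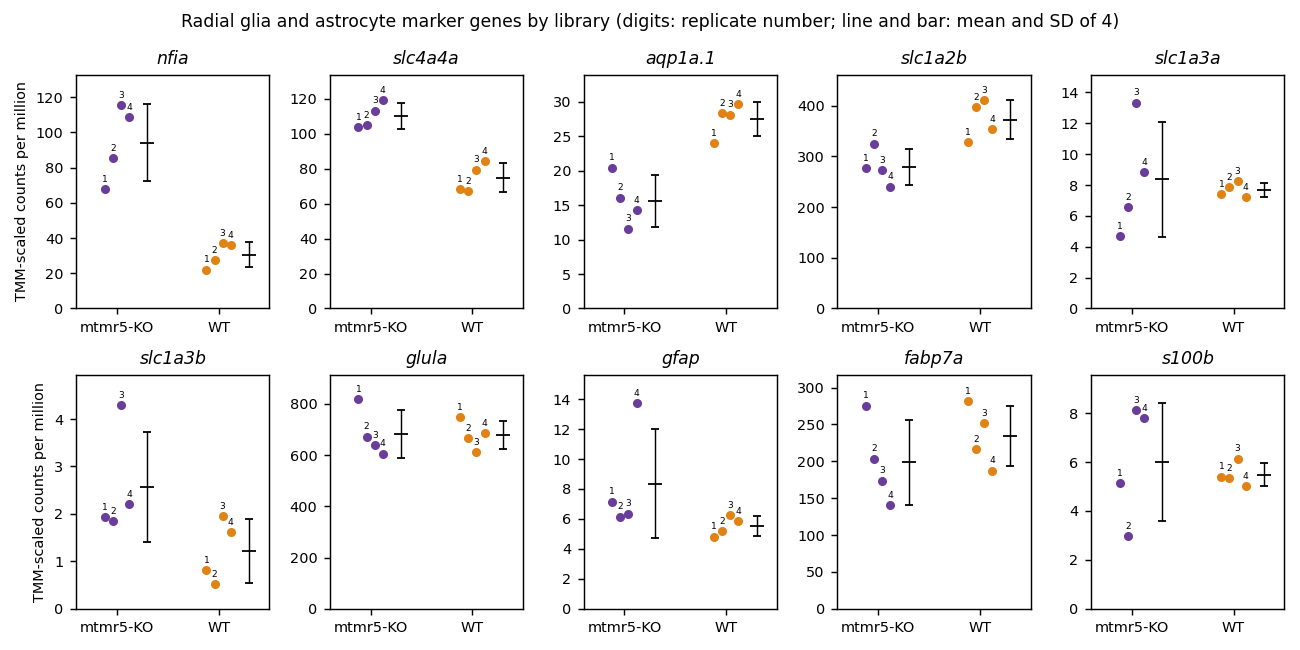
Levels of the 10 genes in each library, in TMM-scaled CPM on axes that start at 0, with *mtmr5*-KO libraries (purple) left of WT libraries (orange), replicate numbers beside the points, and the mean and SD of 4 libraries as a line with bars. The genotypes do not overlap for *nfia*, *slc4a4a*, *aqp1a.1* and *slc1a2b*, and overlap for the other 6 genes.

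Of the 10 genes, *nfia* showed the largest difference in either direction that passed the test. It had 67.8, 85.3, 115.3 and 108.7 CPM in *mtmr5*-KO replicates 1 to 4, against 22.0, 27.3, 37.0 and 36.0 CPM in WT replicates 1 to 4. The lowest *mtmr5*-KO library stood well above the highest WT library, and in both genotypes replicates 3 and 4 were the higher libraries. The mean was 94.2 ± 21.8 CPM in *mtmr5*-KO and 30.6 ± 7.16 CPM in WT (SD, n = 4 each), and the log2 fold change was 1.62 (standard error, SE, 0.20, 95% interval of the fold 2.29 to 4.14, adjusted p = 2.7e-05 from edgeR). It was the only one of the 10 with a higher mean raw count in the smaller *mtmr5*-KO libraries. It had 909, 1289, 1235 and 1130 raw counts there and 790, 847, 1059 and 1004 in WT libraries. With library totals in place of TMM its log2 fold change was 0.64, and it was still called (adjusted p = 0.014 from edgeR).

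Of the nuclear factor I family, *nfixa* and *nfixb* were the other genes found under the symbols searched, and both had few counts. *nfixb* averaged 3.23 ± 2.23 CPM in *mtmr5*-KO and 0.925 ± 0.177 CPM in WT (SD, n = 4 each), with a log2 fold change of 1.80 (SE 0.50, adjusted p = 0.018 from edgeR). It was called higher although the genotypes overlapped, with 0.746, 6.02, 3.73 and 2.40 CPM in *mtmr5*-KO replicates 1 to 4. limma-voom did not call it. With library totals its log2 fold change was 0.85 (adjusted p = 0.17 from edgeR). *nfixa* stayed at or below 16 raw counts in every library and did not pass the test.

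Among the genes of glutamate uptake, *slc1a2b* encodes an EAAT2 transporter, the class that clears most synaptic glutamate in the mammalian forebrain. Its level was 277, 325, 273 and 240 CPM in *mtmr5*-KO replicates 1 to 4, and 328, 398, 411 and 353 CPM in WT replicates 1 to 4. Every *mtmr5*-KO library lay below every WT library, by a narrow margin between *mtmr5*-KO replicate 2 and WT replicate 1. The fold was 0.749 (95% interval 0.597 to 0.939), a log2 fold change of -0.42 (SE 0.15), and the adjusted p of 0.067 from edgeR missed the threshold. By DESeq2, the tool of the study, the adjusted p was 0.013, and by limma-voom 0.042. With the replicate number as a block in edgeR it was 0.0045. The call thus differed between tests and models. Its paralog *slc1a2a*, the other EAAT2 gene, spread widely (adjusted p = 0.44 from edgeR). It had 87.5, 60.5, 16.0 and 24.8 CPM in *mtmr5*-KO replicates 1 to 4, and 87.2, 94.4, 48.6 and 69.4 CPM in WT replicates 1 to 4. In both genotypes replicates 1 and 2 were the higher libraries.

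*slc1a3a* and *slc1a3b* encode EAAT1 (GLAST) transporters, the class typical of radial glia and Müller glia. *slc1a3a* had 4.70, 6.55, 13.3 and 8.85 CPM in *mtmr5*-KO replicates 1 to 4, on both sides of the 7.42, 7.84, 8.24 and 7.21 CPM in WT replicates 1 to 4. The *mtmr5*-KO libraries varied much more among themselves (a coefficient of variation of 44.7%, against 5.97% in WT), and the fold of 1.08 had a 95% interval of 0.728 to 1.61. Without *mtmr5*-KO replicate 3 the log2 fold change was -0.22, and without replicates 3 and 4 it was -0.48. *slc1a3b* had the fewest reads of the 10 genes, with 26, 28, 46 and 23 raw counts in *mtmr5*-KO and 29, 16, 56 and 45 in WT libraries. Whether reads of this gene were counted under another annotation entry was not tested. In CPM this was 1.94, 1.85, 4.29 and 2.21 in *mtmr5*-KO against 0.809, 0.516, 1.95 and 1.61 in WT libraries, a log2 fold change of 1.07 (SE 0.47, adjusted p = 0.12 from edgeR). The 95% interval of the fold ran from 1.05 to 4.19, and the difference did not pass the adjustment over all genes. The log2 fold change was 0.69 without *mtmr5*-KO replicate 3, 0.61 without replicates 3 and 4, and 0.056 with library totals. With the replicate number as a block it was 1.16 (edgeR adjusted p = 0.054).

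*glula* encodes the glutamine synthetase by which glia turn glutamate into glutamine. It had 818, 672, 638 and 605 CPM in *mtmr5*-KO replicates 1 to 4, and 749, 666, 612 and 686 CPM in WT replicates 1 to 4. The ranges of the genotypes covered each other almost fully. The fold was 1.01 with a 95% interval of 0.798 to 1.27 (adjusted p = 0.97 from edgeR), so that, on the TMM scale, a fall below 0.798 or a rise above 1.27 lies outside the interval. The paralogs *glulb* (95% interval of the fold 0.841 to 1.34) and *glulc* had log2 fold changes of 0.08 and 0.22, neither of which passed the test. The ratio of *glula* to *glulb* raw counts within a library, which needs no scaling, was 3.03, 3.06, 3.16 and 2.79 in *mtmr5*-KO and 2.93, 3.06, 3.36 and 3.41 in WT libraries. All 8 ratios lay between 2.79 and 3.41 (difference of the mean log2 ratio -0.08, exact permutation test, p = 0.257, adjusted p = 0.686 over 8 pairs of paralogs). The ratio cannot show a change that both genes share. With library totals *glula* and *glulb* were both called lower, at -0.94 and -0.87 on the log2 scale.

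A fixed list held 20 tested genes of the glutamate-glutamine cycle outside the 10. At an adjusted p under 0.05 from edgeR 1 was higher and 1 was lower, with a median log2 fold change of 0.02. Over all tested genes the shares were 13.5% higher and 7.51% lower. *slc1a9*, a further member of the SLC1 transporter family, averaged 4.36 ± 2.20 CPM in *mtmr5*-KO and 1.42 ± 0.712 CPM in WT (SD, n = 4 each, adjusted p = 0.012 from edgeR). *slc1a4*, a transporter of neutral amino acids such as serine and alanine in the same family, averaged 5.81 ± 2.21 CPM in *mtmr5*-KO and 11.6 ± 4.81 CPM in WT (SD, n = 4 each, adjusted p = 0.030 from edgeR). *slc38a3a*, a glutamine transporter, and *slc1a6*, an EAAT4 transporter of neurons in mammals, had log2 fold changes of -0.35 and 1.61 without passing the test.

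Both genes of ion and water transport passed the test, in opposite directions. *slc4a4a* encodes NBCe1, which carries sodium and bicarbonate across the membrane of astrocytes and of several epithelia. Its level was 103.7, 104.8, 113.2 and 119.1 CPM in *mtmr5*-KO replicates 1 to 4, against 68.3, 67.1, 79.5 and 84.2 CPM in WT replicates 1 to 4. All *mtmr5*-KO libraries were above all WT libraries, and the spread was small in both genotypes. The means were 110.2 ± 7.31 CPM and 74.8 ± 8.37 CPM (*mtmr5*-KO and WT, SD, n = 4 each), and the log2 fold change was 0.56 (SE 0.14, adjusted p = 0.0083 from edgeR). This rise held relative to the bulk of the genes only. With library totals the log2 fold change was -0.41, and without *mtmr5*-KO replicates 3 and 4 it was 0.45 with an adjusted p = 0.062 from edgeR. Its paralog *slc4a4b* had 45 to 66 raw counts in *mtmr5*-KO libraries, and 56 to 80 in WT libraries apart from WT replicate 1, which had 347.

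*aqp1a.1* encodes an aquaporin-1 water channel. In zebrafish the gene is also known for its expression in endothelial cells and red blood cells. It had 20.4, 16.1, 11.6 and 14.3 CPM in *mtmr5*-KO replicates 1 to 4, and 24.0, 28.3, 28.1 and 29.6 CPM in WT replicates 1 to 4. All *mtmr5*-KO libraries were below all WT libraries, with replicate 3 the lowest. The log2 fold change was -0.81 (SE 0.18, 95% interval -1.19 to -0.44, adjusted p = 0.0038 from edgeR). Its neighbour in name, *aqp1a.2*, had at most 2 raw counts in any library and was not tested.

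Markers of the other cells that hold *aqp1a.1* were checked in the same libraries. Of 17 tested endothelial genes, 2 were higher and 2 were lower at an adjusted p under 0.05 from edgeR, with a median log2 fold change of -0.09. Beside them, 13.5% of all tested genes were higher and 7.51% were lower. With library totals 1 was higher and 10 were lower (median -1.05), beside 55.7% of all tested genes that were lower (median -0.98). *cdh5*, the endothelial cadherin, was at 18.7 to 26.1 CPM in *mtmr5*-KO and 21.1 to 27.7 CPM in WT libraries, and *kdrl*, a VEGF receptor, at 2.33 to 3.06 and 3.66 to 5.72 CPM (*mtmr5*-KO and WT). The largest called changes in this list were those of the claudins *cldn5a* (2.21 on the log2 scale) and *cldn5b* (-1.19), and of the scavenger receptor *stab2* (-1.07). The endothelial genes summed to 91.0 to 102 CPM in *mtmr5*-KO and 83.3 to 97.3 CPM in WT libraries. This sum holds the 2 genes called higher, *cldn5a* and *tek* (0.62). *cldn5a* was at 9.17 to 16.5 CPM in *mtmr5*-KO and 1.56 to 4.01 CPM in WT, and *tek* at 16.1 to 26.8 and 11.3 to 17.3 CPM. Of 11 tested erythrocyte genes, 1 was called, *epb41b*, which was higher (1.28 on the log2 scale). *nt5c2l1* (-1.52) and *klf1* (1.12) were not called (adjusted p = 0.059 and 0.054 from edgeR). The erythrocyte genes summed to 77.7 to 97.9 CPM in *mtmr5*-KO and 70.7 to 76.5 CPM in WT libraries. Most of that sum was *cahz*, a carbonic anhydrase gene that is also in the list of Müller glia, at 41.9 to 62.3 CPM in *mtmr5*-KO and 34.9 to 41.9 CPM in WT libraries. The erythroid enzyme gene *alas2* had 0.481 to 1.92 CPM in *mtmr5*-KO and 1.01 to 1.39 CPM in WT libraries. The adult globins *hbaa1* and *hbba1* had no count in any library. The tested globins *hbae3* (0.36), *hbbe1.3* (0.02), *hbbe2* (-0.44), *hbbe1.2* (-0.86) and *hbbe1.1* (-1.15) were not called. *hbbe1.1* had no count in replicates 1 and 2 of either genotype. The part of these cells in the fall of *aqp1a.1* was not tested beyond these levels.

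*gfap*, *fabp7a* and *s100b* encode proteins of the glial cytoplasm that serve as standard markers. *gfap*, the intermediate filament of radial glia and astrocytes, had only 96, 93, 68 and 143 raw counts in *mtmr5*-KO and 173, 161, 179 and 164 in WT libraries. For this gene too, reads counted under another annotation entry were not looked for. In CPM this was 7.16, 6.15, 6.35 and 13.7 in *mtmr5*-KO and 4.82, 5.20, 6.25 and 5.88 in WT libraries. *mtmr5*-KO replicate 4 stood far above every other library, and *mtmr5*-KO replicate 2 lay within the range of WT. The log2 fold change of 0.59 (SE 0.27, adjusted p = 0.14 from edgeR) became 0.22 without that library. *vim* and *nes*, intermediate filament genes of neural progenitors, had log2 fold changes of 0.21 and 0.06 and did not pass the test (adjusted p = 0.48 and 0.92 from edgeR).

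*fabp7a*, a brain lipid-binding protein found in radial glia, had 276, 204, 174 and 141 CPM in *mtmr5*-KO replicates 1 to 4, and 281, 217, 252 and 188 CPM in WT replicates 1 to 4. *mtmr5*-KO replicates 1 and 2 lay within the range of WT, while replicates 3 and 4 lay below it. The log2 fold change was -0.24 (SE 0.20, 95% interval -0.66 to 0.18, adjusted p = 0.43 from edgeR), and it moved with the libraries used. It was -0.0061 without *mtmr5*-KO replicates 3 and 4, -0.14 without replicate 4 alone, -0.14 without WT replicate 1, and -0.45 (edgeR adjusted p = 0.090) without *mtmr5*-KO replicate 1. Each *mtmr5*-KO library lay below the WT library of the same number. With the replicate number as a block the log2 fold change was -0.27 (edgeR adjusted p = 0.080). The paralog *fabp7b* averaged 12.7 ± 4.63 CPM in *mtmr5*-KO and 11.4 ± 0.805 CPM in WT (SD, n = 4 each). *s100b*, a calcium-binding protein of astrocytes in mammals, had 5.14, 2.98, 8.12 and 7.79 CPM in *mtmr5*-KO and 5.41, 5.36, 6.14 and 5.02 CPM in WT libraries. The *mtmr5*-KO libraries lay on both sides of WT, with a coefficient of variation of 40.3%, against 8.63% in WT. The fold of 1.09 had a 95% interval of 0.710 to 1.66, and the log2 fold change was -0.47 without *mtmr5*-KO replicates 3 and 4.

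For 4 of the 10 genes the genotypes did not overlap. Those above WT were *nfia* and *slc4a4a* (2 of 10, against 13.9% of all tested genes), and those below WT were *aqp1a.1* and *slc1a2b* (2 of 10, against 11.0%).

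**Figure D2:**
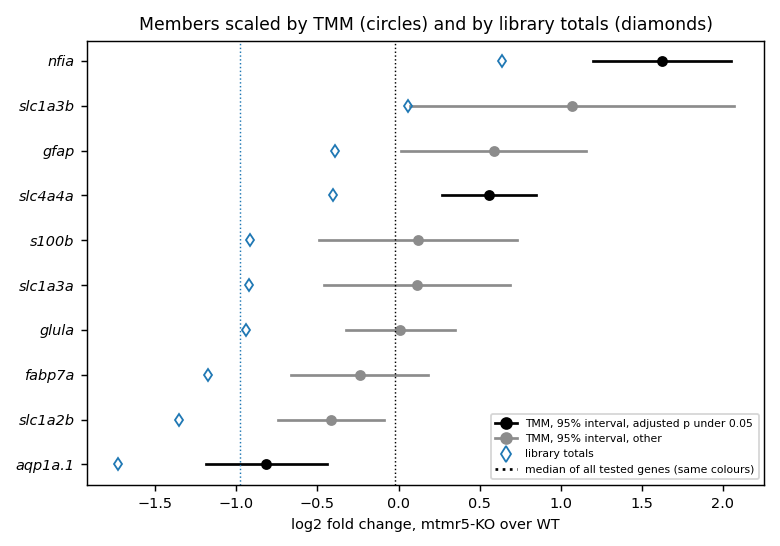
Log2 fold change of *mtmr5*-KO over WT for each of the 10 genes, with circles and 95% intervals for TMM scaling (black where the adjusted p was under 0.05) and diamonds for library totals. Dotted lines mark the median of all tested genes, at -0.02 with TMM and -0.98 with library totals. *nfia* and *slc1a3b* lie to the right of 0 on either scale, *slc1a3b* at only 0.056 with library totals.

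Raw counts of the other 9 genes were also set against those of *glula* in the same library. *glula* was chosen with its log2 fold change of 0.01 under TMM known, so that these ratios restate the comparison on the TMM scale and are no separate check of it. With library totals *glula* itself was at -0.94. The ratio of *nfia* to *glula* raw counts was 0.0828, 0.127, 0.181 and 0.179 in *mtmr5*-KO replicates 1 to 4, against 0.0294, 0.0410, 0.0604 and 0.0525 in WT replicates 1 to 4. The ratio of *aqp1a.1* to *glula* was 0.0250, 0.0239, 0.0181 and 0.0237 in *mtmr5*-KO and 0.0321, 0.0425, 0.0460 and 0.0432 in WT libraries. The genotypes did not overlap in either ratio, and they overlapped in the ratios of *slc4a4a* and *slc1a2b* to *glula*.

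**Figure D3:**
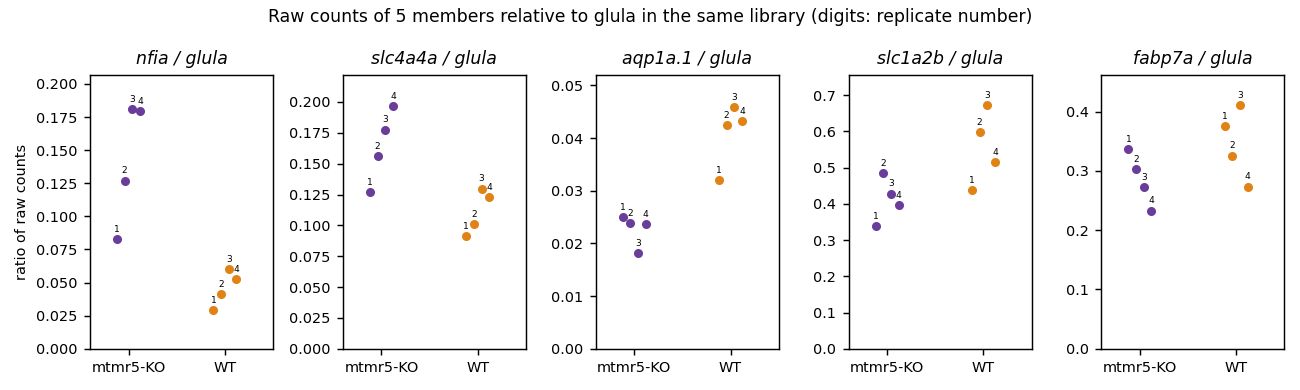
Ratio of the raw counts of 5 of the genes to those of *glula* in the same library, on linear axes that start at 0, with *mtmr5*-KO libraries (purple) left of WT libraries (orange) and replicate numbers beside the points. *mtmr5*-KO libraries lie above all WT libraries for *nfia* and below them for *aqp1a.1*, and the genotypes overlap for *slc4a4a*, *slc1a2b* and *fabp7a*.

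Among 8 pairs of paralogs, a comparison added after the values had been seen, 1 ratio of raw counts did not overlap between genotypes. The ratio of *slc1a3a* to *slc1a3b* was 2.42, 3.54, 3.11 and 4.00 in *mtmr5*-KO and 9.17, 15.2, 4.21 and 4.47 in WT libraries (exact permutation test, p = 0.0286, adjusted p = 0.229 over 8 pairs). It rests on the few counts of *slc1a3b* and did not pass the adjustment.

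Genes of radial glia and astrocytes outside the 10, fixed as a list, also moved in both directions. Of the 29 that were tested, 3 were higher and 5 were lower at an adjusted p under 0.05 from edgeR. Beside them, 13.5% of all tested genes were higher and 7.51% were lower. The median log2 fold change of the 29 was 0.00. *slc6a9*, the glycine transporter GlyT1 of glia, averaged 381 ± 57.5 CPM in *mtmr5*-KO and 132.6 ± 4.51 CPM in WT (SD, n = 4 each), and the log2 fold change was 1.52 (SE 0.15, edgeR adjusted p = 3.95e-06). *cspg5a*, a brain chondroitin sulphate proteoglycan, was at 624 ± 103 CPM in *mtmr5*-KO and 302.6 ± 48.3 CPM in WT (SD, n = 4 each, adjusted p = 0.000476 from edgeR), while its paralog *cspg5b* had a log2 fold change of -0.79 (adjusted p = 0.0068 from edgeR). With library totals in place of TMM, the log2 fold change of *cspg5a* was 0.07. *sox9a*, a transcription factor of glial progenitors and of cartilage, was the other higher gene, at 1.56 on the log2 scale.

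The lower genes of this list were *mfge8a*, a secreted glycoprotein of the lactadherin type (-1.02), *lfng*, a modifier of Notch receptors (-0.93), *gja1b*, the gap junction protein connexin 43 of astrocytes (-0.63), and *fgfbp3*, an FGF-binding protein (-0.48), with *cspg5b* as the fifth. *mfge8a* averaged 19.6 ± 5.38 CPM in *mtmr5*-KO and 40.0 ± 2.15 CPM in WT (SD, n = 4 each, adjusted p = 0.000866 from edgeR). *gja1b* averaged 67.1 ± 15.0 CPM in *mtmr5*-KO and 104.1 ± 16.2 CPM in WT (SD, n = 4 each, adjusted p = 0.016 from edgeR). Of 9 tested genes of Müller glia, *rlbp1a*, a retinaldehyde-binding protein also found in pigment epithelium, was higher (0.62, but -0.34 with library totals) and *her6*, a Notch target, was lower (-0.70). The other 7 were not called. Of the 9, 7 lay above 0 and 2 below, with a median of 0.42, beside -0.02 over all tested genes. With library totals the median of the 9 was -0.53, beside -0.98 over all tested genes.

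The paralogs and the lists of the glutamate-glutamine cycle, of radial glia and astrocytes and of Müller glia held 62 tested genes. Not all of them are particular to glia, as *slc1a6* is a transporter of neurons in mammals. Of the 62, 6 (9.68%) were higher and 7 (11.3%) were lower, beside 13.5% and 7.51% of all tested genes. With library totals 36 of the 62 were lower, beside 55.7% of all tested genes, and 1 was higher.

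**Figure D4:**
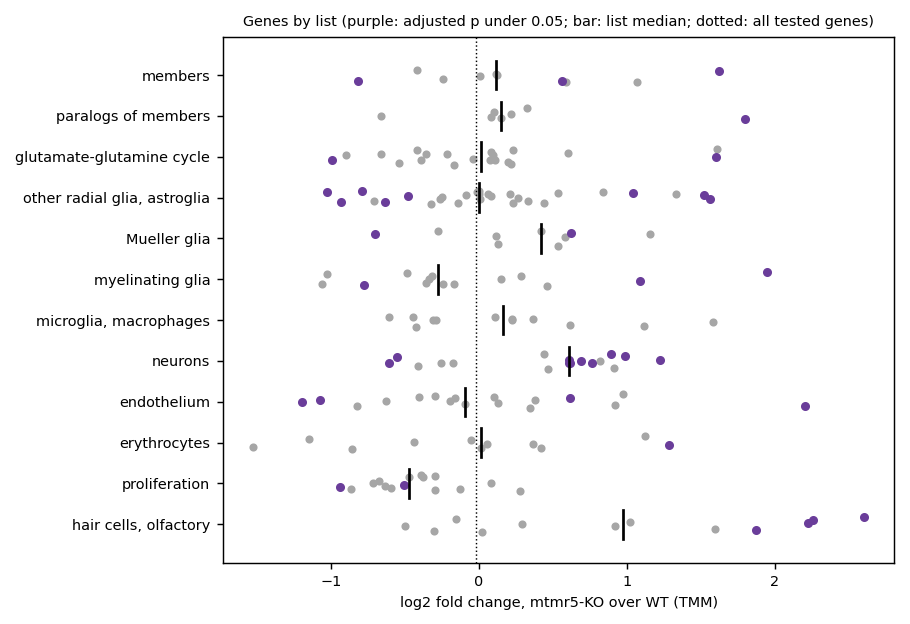
Log2 fold changes of *mtmr5*-KO over WT with TMM scaling for each tested gene of the lists (points, purple where the adjusted p was under 0.05), with the list median as a bar and the median of all tested genes as a dotted line. The glial and glutamate-glutamine cycle lists in the upper rows spread to both sides of the dotted line. The neuron list has 8 genes called higher and 2 lower on this scale.

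In the same libraries, lists of other cell types of the head moved as follows. The shares over all tested genes were 13.5% higher and 7.51% lower. With library totals 55.7% of all tested genes were lower (median -0.98). Of 17 tested neuronal genes, 8 were higher and 2 were lower (median 0.61), with the RNA-binding protein genes *elavl3* and *elavl4* at 1.23 and 0.99, and with the glutamate transporter gene *slc17a6b* and the stathmin gene *stmn2b* at -0.61 and -0.55. With library totals 6 of the 17 were lower (median -0.35), and *elavl3* and *elavl4* were at 0.26 and 0.018. Of 14 genes of myelinating glia, the myelin genes *mbpa* (1.09) and *mag* (1.94) were higher and the progenitor factor *olig2* (-0.78) was lower (median -0.28). The other 11 were not called, among them *plp1a* (-1.06), *cldnk* (-1.03), *plp1b* (-0.49), *mpz* (-0.17) and *mbpb* (0.46). Of the 14, 5 lay above 0 and 9 below. With library totals *mbpa* was at 0.14 and *mag* at 0.92. Of 12 genes of microglia and macrophages, edgeR called 0 (median 0.17), 1 had an unadjusted p under 0.05, and DESeq2 and limma-voom also called 0, while library totals called 4 lower (median -0.89). Of 15 proliferation genes, *mki67* (-0.94) and *mcm7* (-0.50) were lower (median -0.47). Of 12 genes of hair cells and olfactory neurons, 4 hair cell genes were higher, among them *otofa* (2.23) and *tmc2b* (2.60). With library totals 12 of the 14 myelinating glia genes were lower and 1 was higher, all 15 proliferation genes were lower, and 3 of the hair cell and olfactory genes were higher and 3 lower. The hair cell and olfactory list summed to 370 to 562 CPM in *mtmr5*-KO and 119 to 151 CPM in WT libraries. The largest part of that sum was *otofa*, at 213 to 371 CPM in *mtmr5*-KO and 45.4 to 73.8 CPM in WT libraries. The other 8 genes of the list were not called. They were *ompb* (1.59), *s100z* (1.02), *cnga4* (0.92), *pvalb8* (0.29), *pvalb9* (0.02), *ompa* (-0.15), *atoh1a* (-0.30) and *pou4f3* (-0.50). Of the 12 genes, 9 lay above 0 and 3 below (median 0.97, and -0.06 with library totals). The neuronal list summed to 8497 to 10457 CPM and 5024 to 6379 CPM (*mtmr5*-KO and WT). The part of shifts in cell composition in the levels of the 10 genes was not tested.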

How the data were processed

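Heads of 7 dpf larvae were measured by bulk RNA sequencing in 4 *mtmr5*-KO and 4 WT libraries. The raw counts deposited by the authors are whole reads per gene: per the paper and the submitters' processing notes, reads were trimmed (Trim Galore 0.6.7), aligned to GRCz11 with Ensembl release 113 (STAR 2.7.11a) and, where uniquely mapping, counted with HTSeq 2.0.5. The sources used here do not give the strand setting. The deposited normalized counts, a signal equal to raw counts over 1 size factor per library, served only as an alternative. Genotypes came from the labels and no library was left out.

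Genes with 10 or more counts in 3 or more libraries were fitted with edgeR 4.0.16 (TMM, robust glmQLFit, glmQLFTest, genotype as the only term) in R 4.3.3. Standard errors are the log2 fold change over the root of F. Intervals use the total degrees of freedom of edgeR's test, which are prior plus residual. Alternatives were DESeq2 1.42.0, limma 3.58.1, other scalings and filters, a replicate block and left-out libraries. Ratios within libraries were added after the data were seen. The genes and lists were chosen with earlier results of these data known. All 10 genes and their paralogs are named, and of each list up to 4 genes with the smallest p. Other called genes, defining markers and some genes that were not called were added after their values were seen. The lists are matched by symbol, leaving out absent and repeated symbols. Figures used matplotlib 3.10.9.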

Additional observations from a re-analysis of the deposited data

Results flagged for a closer look

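In 2 of 20 sets of 4 libraries (10 genes in each genotype), 1 library stood apart from the other 3 by Dixon's criterion for 4 values, which chance meets in about 1 in 20 sets. *gfap* had 13.7 CPM in *mtmr5*-KO replicate 4, against 6.15 to 7.16 CPM in the other *mtmr5*-KO libraries. *slc1a3b* had 4.29 CPM in *mtmr5*-KO replicate 3, against 1.85 to 2.21 CPM in the others, at 46 raw counts. No cause was tested.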

How the results depend on the processing

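The calls of *nfia* and *aqp1a.1* at an adjusted p under 0.05 held under every alternative run. The number of the 10 genes called higher (2) was 1 with library totals and 1 without *mtmr5*-KO replicates 3 and 4. The number called lower (1) was 6 with library totals, 2 with DESeq2, 2 with limma-voom and 2 with a replicate block, and 1 to 2 when 1 library was left out (2 without *mtmr5*-KO replicate 2), the added gene being *slc1a2b* in all but library totals. With the stricter thresholds, library totals called 3 genes in place of 1, all of them lower. These were *aqp1a.1* (-1.73), *slc1a2b* (-1.35) and *fabp7a* (-1.18). *nfia*, the only gene called so with TMM, was then at 0.64 and missed these thresholds (adjusted p = 0.014 from edgeR). In the 62 genes of the paralogs and the wider lists, higher calls (6) numbered 1 with library totals and 3 with limma on the deposited normalized counts. They numbered 3 to 7 with 1 library left out (3 without *mtmr5*-KO replicate 3). Lower calls (7) numbered 36, 3, 11 with a replicate block, 4 without *mtmr5*-KO replicates 3 and 4, and 4 to 7 with 1 library left out (4 without WT replicate 2, WT replicate 3 or *mtmr5*-KO replicate 4).

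Library totals turned the log2 fold change of *gfap* to -0.39, *slc1a3a* to -0.92, *glula* to -0.94, *s100b* to -0.92 and *slc4a4a* to -0.41. limma-voom gave -0.023 for *slc1a3a* and -0.034 for *s100b*, and leaving out *mtmr5*-KO replicates 3 and 4 gave -0.48 and -0.47. *glula* was at -0.036 with no filter and -0.0012 with limma on normalized counts. Leaving out 1 library gave -0.22 to 0.30 for *slc1a3a*, -0.10 to 0.064 for *glula* and -0.085 to 0.33 for *s100b*. The cause was not tested.

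Over all genes, lower calls (1457) numbered 10818 with library totals, 963 with limma on normalized counts, 741 without WT replicate 2, 836 without WT replicate 3, and 795 without *mtmr5*-KO replicates 3 and 4. Higher calls (2618) numbered 720 with library totals and 1576 without those 2 libraries. The deviations of same-numbered libraries correlated at r 0.0906 to 0.168, and those of differently numbered libraries at -0.111 to 0.0666. All same-number values were thus above all others, though not above 0.1 in every pair. The labels name no shared batch, so the numbers were not taken as pairs in the main fit. The paper calls the WT larvae siblings, and whether same-numbered libraries share parents was not tested. As a hint from the data, 8 of 8 libraries correlated best with their own number. With the replicate block, 2879 genes were higher and 2264 lower, and *slc1a2b* was called (edgeR adjusted p = 0.0045). *slc1a3b*, *gfap*, *s100b* and *slc1a3a* had few counts. In *mtmr5*-KO libraries the coefficient of variation was 43.4% for *gfap*, 40.3% for *s100b* and 44.7% for *slc1a3a*. In WT libraries it was 11.6%, 8.63% and 5.97%. For *slc1a3b* it was 44.9% in *mtmr5*-KO and 55.0% in WT libraries. The part of low counts in the width of the intervals of these genes was not tested.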
